A study of Rattus norvegicus with 5 samples.

Results

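The potassium channel genes described here are those on the Affymetrix rat array whose symbol begins with Kcn, without the A-type channel genes of the Kcnd and Kcnip families and the leak channels of the Kcnk family. By this rule 57 of 14217 named genes were members, carried by 94 probe sets. They encode the pore-forming subunits of voltage-gated channels (Kcna, Kcnb, Kcnc, Kcnh, Kcnq), silent subunits that join other voltage-gated subunits (Kcng, Kcns, Kcnv), inward rectifiers (Kcnj), channels gated by calcium or sodium (Kcnma, Kcnn, Kcnt), and auxiliary subunits (Kcnab, Kcne, Kcnmb). The cells were cerebellar granule cells isolated from Wistar rats 8 days after birth and put into primary culture. They were harvested after 1 day (D1) or 5 days (D5), or after 5 days in which the topoisomerase II inhibitor ICRF-193 (10 µM) was added daily (D5+). All dishes held serum and raised potassium chloride, and 10 µM cytosine arabinoside, which holds back dividing glia, came with a medium change late in day 1, so D1 cells met it for a shorter time. One array per condition was hybridized, and 2 further two-colour arrays each carried D5 cells in the Cy5 channel, against D1 cells in Cy3 on the first and D5+ cells in Cy3 on the second.

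Potassium channels carry the outward current that sets the resting potential and ends each action potential. Granule cells acquire much of this current as they mature, while inward rectifiers coupled to G proteins let transmitters such as GABA slow firing. Voltage-gated channels and inward rectifiers work as assemblies of 4 pore subunits, so the mixture of subunits expressed together shapes the current. Topoisomerase II beta, the isoform these postmitotic neurons rely on, passes one DNA duplex through another, and ICRF-193 both blocks the enzyme and leads to its loss. The comparison of D5 with D1 asks which channel genes differ between the days of culture, and that of D5+ with D5 asks which differ in a culture given the inhibitor. Dependence on the enzyme was not tested.

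Affymetrix values are linear MAS5 signals. A signal was set against a floor at the 40th percentile of its array (19.2 at D1, 16.7 at D5 and 16.3 at D5+), and a gene entered a ratio if it reached the floor on at least 1 of the 2 arrays. Such a gene is called expressed. Where 3 signals stand in a row they are those of D1, D5 and D5+, in that order. For genes with several probe sets, the brightest probe set, by its mean log2 signal over the 3 arrays, was used. Signals under the floor have no order among themselves, and a fold against one is given as a lower bound against the floor. There was 1 array per condition, so no difference could be tested and no error between cultures is known. As a scale for measurement noise, the SD of log2 D5/D1 between probe sets of one gene was 0.49 at signals of 20 to 50. It was 0.23 at signals of 200 to 1000, and that of log2 D5+/D5 was 0.43 and 0.15. These SDs come from genes with exactly 2 expressed probe sets in the same signal range. Pairs of unlike brightness, and error shared by all probe sets of an array, do not enter them.

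Of the 57 genes, 15 were at or above the floor on all 3 arrays, 7 on 2, 8 on 1 and 27 on none. Counted by array, 20 reached it at D1, 24 at D5 and 23 at D5+. The highest signal of any member was that of Kcnj6 at D1 (1108), against a median over all probe sets of 32.9 on that array. At D5 the highest were Kcnab1 (604.5), Kcnj3 (565.6) and Kcnj6 (403.1), and at D5+ Kcnj6 (208.3), Kcnab1 (179.5) and Kcna2 (150.3). These 3 rankings set probe sets of different genes side by side and are not a ranking of transcript number.

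**Figure D1:**
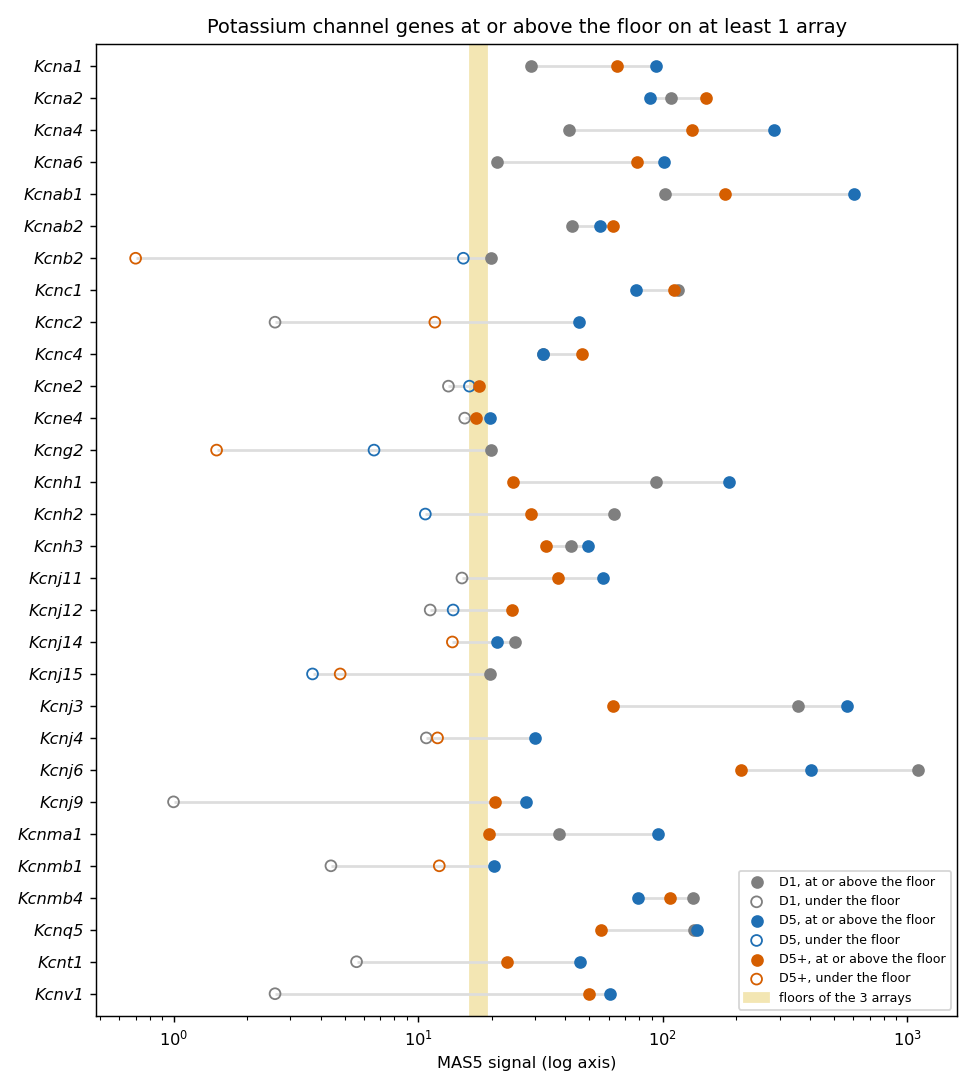
MAS5 signal (log axis) of the 30 potassium channel genes at or above the floor on at least 1 array, grouped by symbol; grey, D1; blue, D5; orange, D5+; open circles, under the floor; band, the floors of the 3 arrays (16.3 to 19.2). Kcnj3, Kcnh1, Kcnma1 and Kcnq5 have their lowest signal at D5+, while Kcna1, Kcna4, Kcna6 and Kcnab1 have their lowest at D1. The D1 point of Kcnc4 (32.5) lies under its D5 point (32.4).

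Between D1 and D5, 28 members were expressed. Of these, 12 were at least 2-fold higher at D5 (42.9%, where 9.27% of all 10654 expressed genes were) and 4 were at least 2-fold lower (14.3%, where 11.8% of all were). The median log2 D5/D1 over these members was 0.53, against -0.21 over all expressed genes. These counts use the signals as measured. A gene that enters the ratio through D5 alone tends to have its higher signal there, and 7 of the 12 (Kcnc2, Kcnj4, Kcnj9, Kcnj11, Kcnmb1, Kcnt1 and Kcnv1) were under the floor at D1 in the probe set used, although another probe set of Kcnj11 was above it. In the same way Kcng2, Kcnh2 and Kcnj15, among the 4 lower, were under the floor at D5. The D1 signals of Kcng2 (19.9) and Kcnj15 (19.6) lay just above the floor. Among the 16 members at or above the floor on both arrays, 5 were higher past 2-fold (Kcna1, Kcna4, Kcna6, Kcnab1 and Kcnma1; 6.52% of all such genes) and 1, Kcnj6, was lower (9.49% of all such genes). With every signal under the floor raised to it, 9 of the 28 were higher (7.26% of all) and 2 lower (9.92% of all).

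Between D5 and D5+, 27 members were expressed. Of these, 9 were at least 2-fold lower with ICRF-193 (33.3%, where 5.91% of all 10550 expressed genes were) and 1, Kcnh2, passed 2-fold upward by its measured signals (3.18% of all). The D5 signal of Kcnh2 was under the floor, and against the floor its ratio was at least 1.73. Among the 9 lower, Kcnc2 and Kcnj4 were under the floor at D5+. The median log2 D5+/D5 was -0.56 over the members and -0.12 over all expressed genes. Of the 20 members at or above the floor on both arrays, 7 were lower past 2-fold (Kcna4, Kcnab1, Kcnh1, Kcnj3, Kcnma1, Kcnq5 and Kcnt1; 3.80% of all such genes) and 0 higher (1.45% of all such genes). With signals under the floor raised to it, 8 of the 27 were lower (4.15% of all) and 0 higher (1.62% of all). Kcnt1 stood exactly at the threshold. The D5 array enters both ratios, D5/D1 and D5+/D5, so an error of that array would move them in opposite directions.

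**Figure D2:**
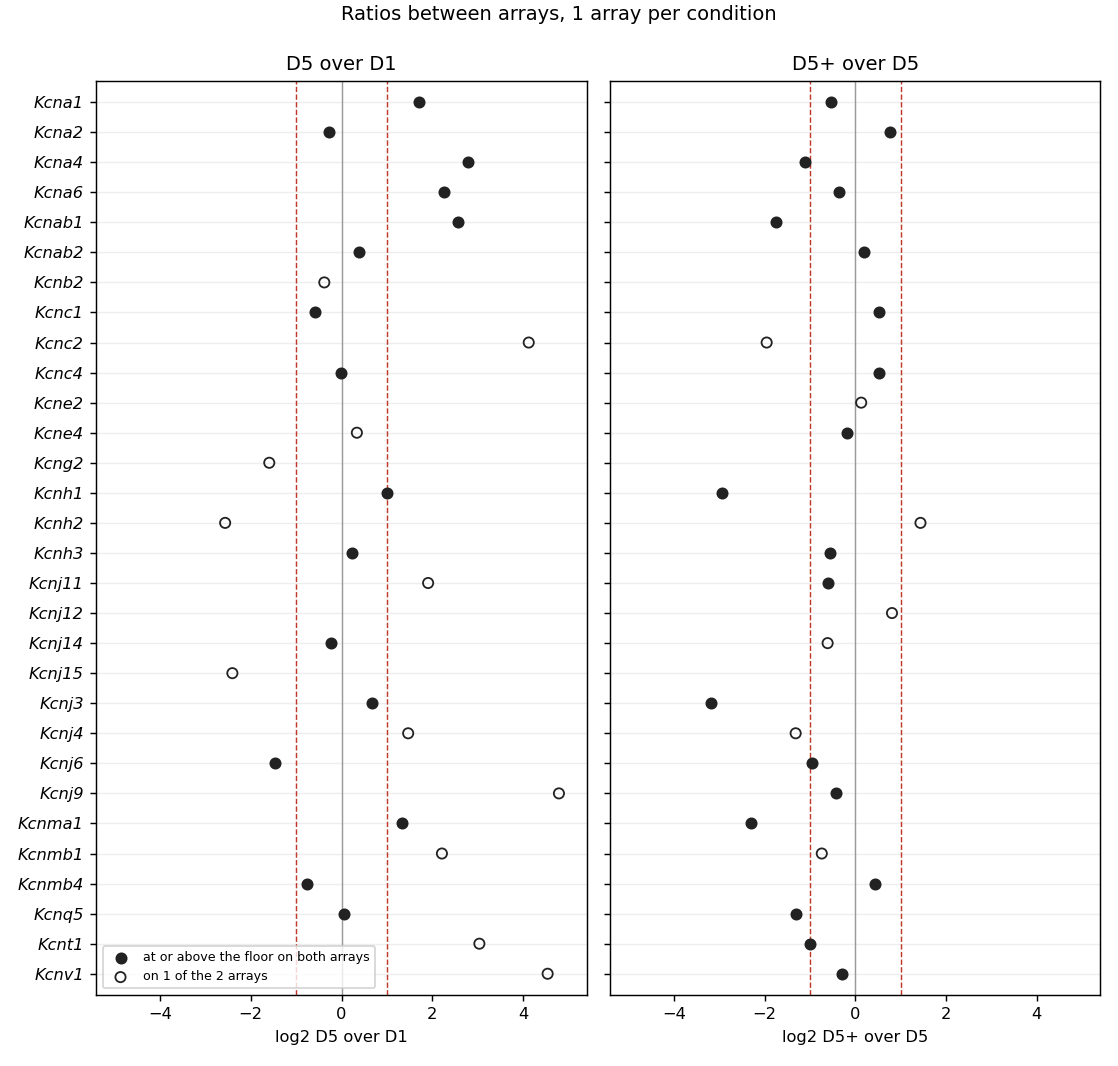
Log2 ratio of D5 over D1 (left) and of D5+ over D5 (right) for each potassium channel gene expressed in that ratio; filled circles, at or above the floor on both arrays; open circles, on 1 of the 2; dashed lines, 2-fold. On the left 12 genes lie at or beyond the upper line, 7 of them as open circles, and on the right 9 genes lie at or beyond the lower line.

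The Shaker-type channels (Kcna) open at low voltages along axons and near the cell body, where they restrain firing. Kcna4, which forms a rapidly inactivating channel, had a signal of 41.5 at D1, 285.1 at D5 and 131.4 at D5+. It was 6.87-fold higher at D5 than D1, above 98.7% of expressed genes, and 2.17-fold lower at D5+ than D5. Kcna6 had 21.1, 100.8 and 78.1, and Kcna1, the subunit mutated in episodic ataxia, had 28.8, 93.7 and 64.9 in the same order. Both were lowest at D1 (log2 D5/D1 of 2.26 and 1.70), and their D5+ signals were within 2-fold of D5 (log2 D5+/D5 of -0.37 and -0.53). The D1 signal of Kcna6 lay just above the floor, and its other 2 probe sets were under the floor on every array. Kcna2, a common partner of Kcna1 in axons, did not follow them: it had 108.4 at D1, 88.9 at D5 and 150.3 at D5+, with all ratios under 2-fold. Kcna3 and Kcna5 were under the floor on all 3 arrays. Over the 4 expressed Kcna genes, log2 D5/D1 had a median of 1.98 and log2 D5+/D5 a median of -0.45.

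Kcnab1 encodes the cytoplasmic beta subunit that binds Kcna channels and speeds their inactivation. Its signal was 102.4 at D1, 604.5 at D5 and 179.5 at D5+, which is 5.90-fold higher at D5 than D1 and 3.37-fold lower at D5+ than D5. Its second probe set gave 49.9, 150.3 and 40, the same order of D5 against the other arrays at lower signal. Kcnab2, the more widespread beta subunit, had 42.4, 55.3 and 62.7, with neither ratio past 2-fold. A second probe set of Kcnab2 reached the floor at D5 alone (10.2, 26.1 and 15.1). Kcnab3 was under the floor on all arrays.

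Kcna4, Kcnab1 and Kcna6 had the largest D5/D1 among the members at or above the floor on all 3 arrays, and their promoters are printed for that reason. The promoters are those around the annotated start of each gene, and where transcription starts in these cells was not measured. Each run holds 250 bases before and 50 bases after the start in RefSeq annotation of GRCr8, 5′ to 3′ on the strand of the gene. Kcna4 lies at chr3:114215086-114215385 on the plus strand, Kcnab1 at chr2:151614301-151614600 on the plus strand and Kcna6 at chr4:161262303-161262602 on the minus strand.
Kcna4: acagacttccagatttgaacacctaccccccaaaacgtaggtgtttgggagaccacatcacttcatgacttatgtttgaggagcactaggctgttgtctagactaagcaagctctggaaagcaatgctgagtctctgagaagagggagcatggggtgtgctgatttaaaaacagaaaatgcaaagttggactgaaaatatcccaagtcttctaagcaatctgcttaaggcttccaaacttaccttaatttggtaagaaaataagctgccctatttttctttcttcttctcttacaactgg
Kcnab1: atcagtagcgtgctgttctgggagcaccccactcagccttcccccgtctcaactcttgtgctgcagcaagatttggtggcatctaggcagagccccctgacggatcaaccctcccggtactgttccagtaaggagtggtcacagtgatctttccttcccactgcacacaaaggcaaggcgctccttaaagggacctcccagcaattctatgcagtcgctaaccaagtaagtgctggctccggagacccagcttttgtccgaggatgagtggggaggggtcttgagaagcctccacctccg
Kcna6: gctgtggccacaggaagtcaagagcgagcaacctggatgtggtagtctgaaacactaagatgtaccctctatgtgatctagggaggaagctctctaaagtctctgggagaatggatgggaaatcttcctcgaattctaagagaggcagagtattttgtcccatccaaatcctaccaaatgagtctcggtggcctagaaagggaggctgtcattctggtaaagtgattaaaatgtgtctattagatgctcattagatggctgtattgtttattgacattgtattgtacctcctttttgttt

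The G and C content of these windows was 41.7% for Kcna4, 56.7% for Kcnab1 and 43.0% for Kcna6. Over the 43 members with a promoter in that table the median was 62.3% (34% to 80.7%), against 52.3% over all 27457 promoters of the table. Kcna4 and Kcna6 thus stood well below the median of the members. Motifs were searched on both strands (the cAMP response element TGACGTCA, the AP-1 site TGACTCA, the GC box GGGCGG, the TATA box TATAAA and the E-box CAGCTG), and none was found in these 3 windows, so no letters are in capitals. Over the 43 members the GC box was in 25 windows (58.1%, against 34.9% of all promoters), the E-box in 10 (23.3% against 15.1%), the AP-1 site in 2 (4.65% against 4.53%), the TATA box in 2 (4.65% against 14.3%) and the cAMP response element in 0 (against 1.91%). A match is a description of letters and not a bound site.

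The Shaw-type channels (Kcnc) open only at strong depolarization and close fast, which allows high firing rates. Kcnc1, the member best known from granule cells, had a signal of 115.7 at D1, 77.7 at D5 and 111.1 at D5+, and Kcnc4 had 32.5, 32.4 and 46.6. Neither passed 2-fold in any ratio. Kcnc2 was under the floor at D1 (2.6), at 45.4 at D5 and again under the floor at D5+ (11.7). Against the floors, it was at least 2.36-fold higher at D5 than D1 and at least 2.79-fold lower at D5+ than D5. Only 1 of its 6 probe sets reached the floor on any array. Kcnb2, a delayed rectifier of the Shab type, was at 19.9 at D1, close to the floor, and under it at D5 and D5+.

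The Kcnh channels are related to the ether-a-go-go gene of the fly. Kcnh1 had 93.5 at D1, 186.8 at D5 and 24.4 at D5+. Its ratio of D5 to D1 was 1.998, just inside the 2-fold threshold, and it was 7.66-fold lower at D5+ than D5, which is percentile 0.502 among the ratios of all expressed genes. The D5+ signal was also lower than that at D1. Kcnh2, which encodes the channel of the rapid delayed rectifier current of the heart, moved the other way, from 63.3 at D1 to under the floor at D5 (10.7) and 28.9 at D5+. It was at least 3.79-fold lower at D5 than D1, and the D5+ signal was at least 1.73-fold above D5. Kcnh3 was within 2-fold throughout (42.0, 49.4 and 33.4). The other 5 Kcnh genes were under the floor on every array, so their signals give no order. The 3 expressed members thus had 3 different patterns, and their medians (log2 D5/D1 of 0.23, log2 D5+/D5 of -0.56) describe Kcnh3 alone.

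Kcnj3, Kcnj5, Kcnj6 and Kcnj9 encode the inward rectifiers opened by G protein beta and gamma subunits. Kcnj6, the gene mutated in the weaver mouse, whose granule cells die, had the highest signal of any member, 1108 at D1, 403.1 at D5 and 208.3 at D5+. It was 2.75-fold lower at D5 than D1, and its log2 D5+/D5 was -0.95, just inside the threshold. All 4 of its probe sets were lower at D5 than D1, and 3 of them lower at D5+ than D5, the other being under the floor on both of those arrays, with log2 D5/D1 from -0.88 to -2.44. Kcnj3, its usual partner in the channel, had 355.8 at D1, 565.6 at D5 and 62.6 at D5+. It was 9.04-fold lower at D5+ than D5, the lowest such ratio of any expressed member and percentile 0.408 among those of all expressed genes. A second probe set gave 149.4, 237.4 and 33.9, and the other one was under the floor on every array. Kcnj9 was under the floor at D1 (1.0) and at 27.7 at D5 and 20.7 at D5+, at least 1.44-fold higher at D5 than D1. Kcnj5 was under the floor throughout. Of these channels, then, the brightest was 2.75-fold lower at D5 than D1, another was under the floor at D1 alone, and one more was low at D5+ alone.

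Among the other inward rectifiers, Kcnj11, the pore of the ATP-sensitive channel, had 3 probe sets that disagreed. The brightest was under the floor at D1 (15.1) and had 56.7 at D5 and 37.3 at D5+, at least 2.95-fold higher at D5 than D1. Another was at or above the floor on all 3 arrays (26.1, 28.7 and 18.2) with a log2 D5/D1 of 0.14, and the remaining one (14.0, 19.6 and 18.6) had 0.49, so the count of Kcnj11 as higher at D5 rests on 1 of its 3 probe sets. Kcnj4, a strong rectifier of forebrain dendrites, reached the floor at D5 alone (10.8, 29.9 and 12), at least 1.56-fold above D1 and at least 1.83-fold above D5+. Kcnj15 reached it at D1 alone (19.6, 3.7 and 4.8), as a bound at least 1.17-fold above D5. Kcnj12 reached it at D5+ alone (11.2, 13.9 and 24.3). Kcnj14 had 24.8, 21.1 and, under the floor, 13.8. For these last 4 genes the signals were so near the floor that the bounds stay under 2-fold. Kcnj1, Kcnj2, Kcnj8, Kcnj10, Kcnj13 and Kcnj16 were under the floor on all arrays. Over the 7 expressed Kcnj genes of each ratio, log2 D5/D1 ran from -2.41 to 4.79 and log2 D5+/D5 from -3.18 to 0.81 by measured signals. The ends -2.41 (Kcnj15), 4.79 (Kcnj9) and 0.81 (Kcnj12) are against signals under the floor. With those signals raised to the floor they were -0.23, 0.53 and 0.54. By measured signals, log2 D5/D1 had a median of 0.67 and log2 D5+/D5 a median of -0.61. These medians are the values of Kcnj3 and of Kcnj14, whose D5+ signal was under the floor, and do not describe the subfamily. In D5/D1, Kcnj4, Kcnj9 and Kcnj11 entered through D5 alone and Kcnj15 through D1 alone.

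**Figure D3:**
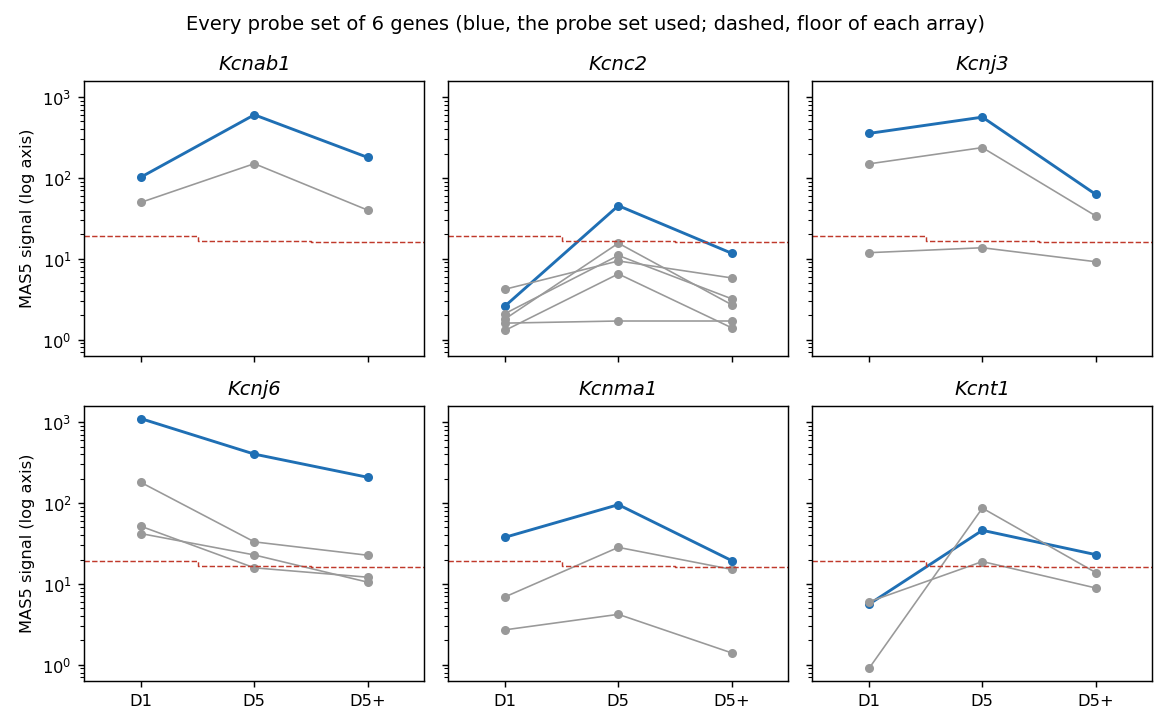
MAS5 signal (log axis) of every probe set of Kcnab1, Kcnc2, Kcnj3, Kcnj6, Kcnma1 and Kcnt1 at D1, D5 and D5+; blue, the probe set used for the gene; grey, its other probe sets; dashed, the floor of each array. All 4 probe sets of Kcnj6 are lower at D5+ than D1, and both probe sets of Kcnj3 above the floor are low at D5+ (62.6 and 33.9).

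Kcnma1 encodes the large-conductance channel opened by calcium and voltage, which helps end action potentials. It had 37.7 at D1, 95.5 at D5 and 19.4 at D5+, 2.53-fold higher at D5 than D1 and 4.92-fold lower at D5+ than D5. A second probe set reached the floor at D5 alone (6.9, 28.3 and 15.1). Its neuronal beta subunit Kcnmb4, which slows the channel, had 133.4, 79.3 and 106.6, with both ratios within 2-fold and in the opposite direction to those of Kcnma1. Kcnmb1, the smooth muscle subunit, reached the floor at D5 alone (4.4, 20.4 and 12.2), at least 1.06-fold above D1. The small-conductance channels Kcnn1 and Kcnn3 and the intermediate-conductance channel Kcnn4 were all under the floor on every array (0.8 to 12.5).

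Kcnt1, the sodium-activated channel, was under the floor at D1 (5.6), at 46.0 at D5 and at 23.0 at D5+. It was at least 2.40-fold higher at D5 than D1 and 2-fold lower at D5+ than D5. Another probe set had a larger contrast (0.9, 86.6 and 13.8), and the remaining one reached the floor at D5 alone (6.0, 18.9 and 8.9). All 3 probe sets were highest at D5. Kcnq5, one of the genes of the M current that damps repetitive firing, had 134.3 at D1, 138.5 at D5 and 55.8 at D5+, level between the days and 2.48-fold lower with ICRF-193. A dimmer probe set of Kcnq5 did not share this (30.2, 21.2 and 27.5). Kcnq1 and Kcnq3 were under the floor throughout.

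Of the silent subunits, Kcnv1 was under the floor at D1 (2.6), at 60.6 at D5 and at 49.7 at D5+, at least 3.16-fold higher at D5 than D1 with a log2 D5+/D5 of -0.29. Kcng2 reached the floor at D1 alone (19.9, 6.6 and 1.5). The auxiliary subunits Kcne2 (13.3, 16.2 and 17.7) and Kcne4 (15.5, 19.6 and 17.3) stayed at the floor and had no ratio past 2-fold. Kcne1, Kcne3, Kcng3, Kcns1, Kcns2, Kcns3 and Kcnv2 were under it on all arrays.

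The D5+ array was also set against D1. Of 27 members expressed in that ratio, 8 were at least 2-fold higher at D5+ (7.77% of all 10645 expressed genes) and 8 at least 2-fold lower (14.7% of all), with a median log2 of 0.16, against -0.32 over all expressed genes. At or above the floor on both arrays were 16, of which Kcna1, Kcna4 and Kcna6 were higher (4.98% of all such genes) and Kcnh1, Kcnh2, Kcnj3, Kcnj6 and Kcnq5 were lower (11.8% of all such genes). With signals under the floor raised to it, 4 of the 27 were higher (5.61% of all) and 5 lower (12.4% of all). The D5+ signal of Kcnab1 (179.5) was within 2-fold of its D1 signal (102.4), and that of Kcnma1 (19.4) was within 2-fold of its D1 signal (37.7). These ratios share the D1 array with D5/D1 and the D5+ array with D5+/D5.

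The two-colour arrays give a second measurement of both comparisons, for 51 of the 57 genes. Their log base is not given in the sources used here, nor whether the RNA was that of the Affymetrix arrays. On the D5/D1 array 29 of 51 members were above 0, where 51.8% of 9635 named genes were. On the D5/D5+ array 28 of 51 were above 0, where 51.0% of 9623 were. By sign, then, the members stood near the background on both. At a log ratio of 1 or more, 2-fold if the base is 2, were 4 members on the D5/D1 array (3.24% of all) and 3 on the D5/D5+ array (0.925% of all). At -1 or less was 1 member on each (0.965% and 1.03% of all). If the base is natural, 2-fold is a smaller log ratio, and 4 members (6.30% of all) passed it upward and 1 (2.49% of all) downward on the D5/D1 array, with 4 (1.92% of all) and 2 (2.33% of all) on the D5/D5+ array.

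Kcnab1 had a log ratio of 1.73 for D5 over D1 and 1.23 for D5 over D5+. Kcnma1 had 2.0 and 1.12, Kcnt1 had 1.67 and 0.94, and Kcnh1 had 0.56 and 1.01. For these 4 genes D5 was the higher channel on both arrays, as it was the highest signal on the Affymetrix arrays. Kcnh2 had -2.60 and -1.71, so D5 was the lower channel on both, as it was the lowest Affymetrix signal. The fourth gene at a log ratio of 1 or more for D5 over D1 was Kcnh7, with 1.14 for D5 over D1 and -0.86 for D5 over D5+, and it was under the Affymetrix floor on all arrays.

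For other members the platforms differed in sign or only in size. Kcna4, 6.87-fold higher at D5 by Affymetrix, had a two-colour log ratio of 0.14 for D5 over D1 and 0.32 for D5 over D5+. Kcna6 had 0.20 and 0.09, and for both genes the signs were those of the Affymetrix ratios. Kcnj3 had -0.06 and -0.08, against the 9.04-fold difference between D5 and D5+ on the Affymetrix arrays. Kcnj6 had 0.04 and 0.17. Of the 14 members past 2-fold in D5/D1 by Affymetrix and measured on both, 8 had the same sign on both platforms (57.1%), where 85.0% of all such genes did. The 6 that did not were Kcnc2, Kcnj4, Kcnj6, Kcnj11, Kcnj15 and Kcnmb1, all with two-colour values between -0.15 and 0.10. In D5+/D5 the sign was the same for 8 of 9 (88.9%, where 79.7% of all such genes did), with Kcnj3 as the exception. Kcnq5 was measured on the Affymetrix arrays only, so 8 of its fellow members past 2-fold lower, and Kcnh2, make up these 9.

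**Figure D4:**
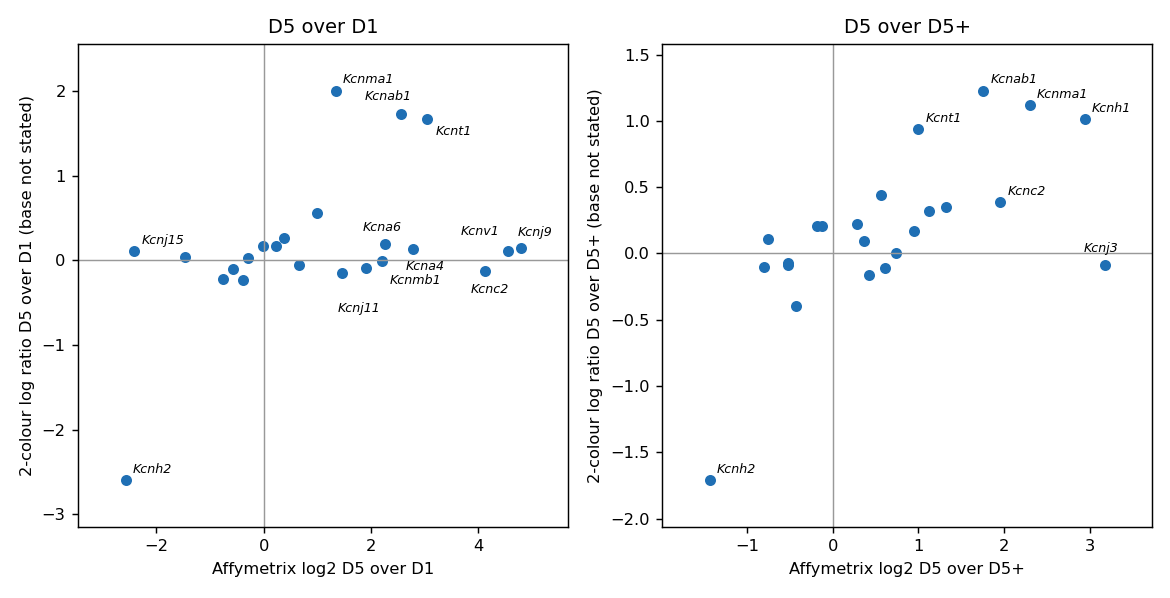
Affymetrix log2 ratio (horizontal) against two-colour log ratio (vertical, base not stated) for potassium channel genes expressed in that ratio; left, D5 over D1; right, D5 over D5+. Kcnab1, Kcnma1 and Kcnt1 are far above 0 on both axes of both plots and Kcnh2 far below, while Kcna4, Kcnc2, Kcnj9 and Kcnv1 on the left and Kcnj3 on the right have two-colour values near 0.

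Several members lie next to one another in the gene order of GRCr8. Kcna1 and Kcna6, neighbours on chromosome 4, were both higher at D5, while Kcna5 beside them was under the floor. Kcna2, beside Kcna3 on chromosome 2, was expressed and Kcna3 was not. Kcnj6 was lower at D5 than D1 by Affymetrix. Kcnj15 beside it on chromosome 11 reached the floor at D1 alone (19.6, against a floor of 19.2), as a bound at least 1.17-fold above D5. On the two-colour D5/D1 array Kcnj6 had 0.04 and Kcnj15 had 0.10, so a shared fall of these neighbours is not shown. Kcnj9 reached the floor at D5 and D5+, and Kcnj10 beside it on chromosome 13 did not. In both remaining neighbouring pairs (Kcnj2 and Kcnj16, Kcnj1 and Kcnj5) neither gene reached the floor.

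A list of 37 genes whose products work with these channels (scaffolds, axonal organizers, sulfonylurea receptors, GABA-B receptors and HCN channels) had 30 on the array, 28 of them at or above the floor on some array. In D5/D1, 8 of 26 expressed genes of the list were higher past 2-fold (9.27% of all expressed genes were) and 3 lower (11.8% of all). In D5+/D5, 3 of 28 were higher (3.18% of all) and 4 lower (5.91% of all). Lgi4, a secreted protein of glia, had 229.2 at D1, 18.2 at D5 and 36.9 at D5+, 12.6-fold lower at D5 than D1. Cntn2, the axonal adhesion protein that gathers Kcna channels beside nodes and marks granule cells before they migrate, had 290.1, 43.5 and 53.6. Amigo2, an adhesion protein, had 159.2, 659.2 and 215.8, the same order as Kcnab1. Adam11, which helps place Kcna channels at cerebellar terminals in the mouse, was under the floor at D1 (13.1), then at 82.3 and 88.1. The GABA-B receptor genes that open Kcnj3 and Kcnj6 channels stayed within 2-fold in both ratios (Gabbr1, 501.3, 524.8 and 474.5; Gabbr2, 224.1, 278.1 and 284.5). Abcc8, the partner of Kcnj11, had 22.4, 49.4 and 47.8.

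Markers of other cells beside granule cells were above the floor, and some of them differed between the arrays. All 7 mature granule cell markers on the array were at or above the floor at D5 and D5+ and 5 were at D1. Of these 7, 4 were past 2-fold higher at D5 than D1 and 0 lower (median log2 of 1.21), among them Gabra6 (84.5, 962.7 and 686.4) and Slc17a7 (290.7, 1369.3 and 774.0), and 0 were past 2-fold either way in D5+/D5. Their summed signals (7029.6, 7045.8 and 6629.9) were mostly those of Neurod1, which had 5653.8, 3072.2 and 2687.0. Markers of precursors and immature neurons summed to 6248.4, 1122.0 and 1513.8, with all 5 expressed ones past 2-fold lower at D5 than D1. From D5 to D5+, 2 of these 5 were past 2-fold higher, Dcx (322.2 to 677.1) and Sox11 (30.3 to 173.8), and 1 lower, Mki67 (73.3 to 17.7). Astrocyte markers, 9 of 10 of them at or above the floor, summed to 4339.8, 6182.8 and 2933.5, and 6 of 9 were past 2-fold lower at D5+ than D5 (median log2 of -1.81), among them Gfap (1511.9 to 167.0) and Aqp4 (523.9 to 64.2), while S100b (339.3 to 512.9) and Gja1 (921.2 to 1062.8) were higher at D5+, within 2-fold. Fibroblast markers, all 5 at or above the floor, summed to 321.6, 1986.6 and 5179.8, with 3 past 2-fold higher at D5 than D1 and 4 higher at D5+ than D5. Purkinje cell markers summed to 1713.0, 361.3 and 561.3, mostly from Pcp4 at D1 (1421.5, 94.1 and 367.3). Of the 5, 3 were past 2-fold lower at D5 than D1, while Calb1 (119.1 to 205.2) and Rgs8 (under the floor at D1, 17.5 at D5) were not. The Kir channel typical of astrocytes, Kcnj10, was under the floor on all arrays (0.6, 1.6 and 0.5), as were the astrocyte transporter Slc1a2, the endothelial markers Pecam1 and Vwf and the interneuron marker Slc6a5. Summed signals of oligodendrocyte (1755.2 to 2699.4), microglia (756.1 to 1002.2), mural (255.6 to 740.8), endothelial (91.4 to 160.1) and inhibitory interneuron markers (865.3 to 1236.4) are given as the lowest and highest of the 3 arrays. Of 6 interneuron markers expressed in D5+/D5, 1 was past 2-fold higher, Gad2 (31.2 to 86.1). The 2 past 2-fold lower were Sst (577.5 to 134.6) and Pvalb (44.2 to under the floor). The part of these cells in the values of the potassium channel genes was not tested, and in bulk RNA fewer cells of a type and less RNA per cell cannot be told apart.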

How the data were processed

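Potassium channel genes were followed on 3 Affymetrix rat arrays and 2 two-colour arrays. The values the authors deposited for the Affymetrix arrays are intensities on a linear scale, made with GCOS and MAS5 per the methods and the submitters' notes, with versions not given in the sources used here. Medians over all probe sets were 32.9 (D1), 29.2 (D5) and 28.0 (D5+). The values were used as deposited. The authors' deposited two-colour values are log ratios. Mainly their sign was used, since the sources used here give neither log base nor normalization. Detection calls were not used, and the floor stands in their place. A low floor or an under-floor signal inflates ratios, so bounds are given.

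Probe sets were named from the platform annotation and matched to GRCr8 gene names. Of the probe sets, 20826 had 1 symbol and 436 several, which were not used. Two-colour probes were matched by symbol, with the mean over probes of a gene. Calculations used Python 3.11.15, pandas 2.3.3 and numpy 2.4.6, and drawings matplotlib 3.10.9. The counting of genes past 2-fold was tested on simulated data for bright genes only, so not for signals near the floor. With 1 array per condition, no test was possible, and precision is limited by the number of arrays. Values are given for all members expressed on any array, and for the partner genes with the 4 largest changes. Of the other partner genes named, Gabbr1, Gabbr2 and Abcc8 were chosen after their values had been seen, as were the cell type markers given by name. The members and lists were chosen with earlier results of these data known. Alternatives were floors at the 20th and 60th percentiles or none, signals under the floor raised to it, 3 scalings, the median over probe sets, an added offset and 1.5-fold and 3-fold thresholds. A floor needed on both arrays, or on any of the 3, was chosen after seeing the data. Protein sequences were not used here.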

Additional observations from a re-analysis of the deposited data

How the results depend on the processing

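Counts of members past 2-fold depended most on how signals near the floor were treated, since a signal under it can give any ratio. No scaling of the arrays (by the median of all probe sets, the median above the floor, or quantiles) moved a count by over 1.5 times. Lowering the floor to the 20th percentile gave 8 of 53 members lower on D5 than D1 (15.1%, against 14.8% of all). Under that floor 17 of 47 were lower with ICRF-193 (36.2%, against 9.47% of all). Without any floor, 8 of 57 were lower on D5 than D1 (14.0%, against 16.6% of all). Of the same 57, 20 were lower with ICRF-193 (35.1%, against 10.8% of all) and 2 higher (3.51%, against 8.76% of all). A higher floor, the 60th percentile, left 16 members expressed in D5/D1. Of these, 7 were higher on D5 (43.75%, against 8.41% of all) and 2 lower (12.5%, against 10.6% of all). Under the same floor 0 of 15 were higher with ICRF-193 (1.6% of all). With signals under the floor raised to it, 2 of 28 were lower on D5 than D1 (7.14%, against 9.92% of all). In that setting 0 of 27 were higher with ICRF-193 (1.62% of all). The floor value added to every signal gave the same 2 and 0, against 7.59% and 1.04% of all. At 1.5-fold, 3 of 27 were higher with ICRF-193 (11.1%, against 7.91% of all). At 3-fold, 0 of 27 were higher (1.18% of all) and 5 lower (18.5%, against 2.32% of all) with ICRF-193. With the floor needed on both arrays, an alternative chosen after seeing the data, 5 of 16 were higher on D5 than D1 (31.25%, against 6.52% of all). In that setting 1 was lower (6.25%, against 9.49% of all), and 0 of 20 were higher with ICRF-193 (1.45% of all). Among members at or above the Affymetrix floor on any array, 15 of 25 were above 0 on the two-colour D5/D1 array (60%, where 51.8% of all named genes were). On the D5/D5+ array 16 of 25 were (64%, against 51% of all).

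The median log2 D5+/D1 changed sign, to -0.0129 with the floor at the 20th percentile, -0.0473 with no floor, -0.12 with signals raised to the floor, -0.0465 with the offset and -0.19 with the floor needed on both arrays. The medians of log2 D5/D1 and D5+/D5 kept their signs under every alternative. Of 26 ratios past 2-fold, 19 stayed past 2-fold with signals raised to the floor and 18 with the offset. The median over probe sets kept 24, each scaling by a median kept 25 and quantiles kept 24. Their signs are no check, since ratios chosen for their size can hardly change sign under the scalings, the raised floor or the offset. Kcnm genes lost most of their median log2 D5/D1 with signals raised to the floor (0.09), since Kcnmb1 was near it. With the median over probe sets, log2 D5/D1 of Kcnj11 was 0.49 and log2 D5+/D5 of Kcnq5 was -0.47, both within 2-fold. No paired analysis was possible because there was 1 array per condition and the labels give no replicate numbers. With no replicates, no replicate could be left out.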
